A study of Mus musculus with 6 samples.

Results

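The B cell, myeloid and erythroid lineage genes are 33 genes that mark cells other than T cells, and they were read in RNA-seq libraries of sorted CD4+ T cells. They were taken from a fixed list of names, 32 by gene symbol and Hbb-bs by its gene ID, from a table of 56246 gene IDs of which 25351 carry a symbol. They fall into 7 B cell surface or signaling genes, 2 B cell transcription factors, 5 MHC class II genes, 11 myeloid genes, 5 dendritic cell genes and 3 hemoglobin genes. The study deleted Cd2bp2, which encodes the spliceosomal protein CD2BP2/U5-52K, in mouse T cells. Conditional knockout (cKO) mice were labelled U5-52Kf/f CD4-Cretg, with the 3 libraries KO_7.8, KO_9.10 and also KO_11.12. Of the Control mice, U5-52Kwt/f CD4-Cretg gave CTRL_1.2 as well as CTRL_3.4, and U5-52Kf/f CD4-Cre- gave CTRL_5.6, so the Control group holds 2 genotypes. The mice were adult males, and the sources used here do not explain the digits of the library names. CD4-Cre acts in cells that have passed through Cd4 expression, so cells of other lineages are not its intended target. Spleen and peripheral lymph node cells were pooled and sorted as CD4+ CD8- cells on those 2 stains alone, after red cells among the splenocytes had been lysed.

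A B cell signals through its immunoglobulin receptor and the CD79 chains, and Pax5 and Ebf1 hold its gene program in place. MHC class II molecules present peptides to CD4+ T cells and are made by B cells, dendritic cells and macrophages, under the control of the coactivator CIITA, whereas mouse T cells make little of them. Part of the mouse conventional dendritic cells of the spleen carry CD4 on their surface. Hemoglobin is made by erythroid cells and persists in reticulocytes.

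Within a group, values follow the order of library names given above. All values are deposited normalized counts, in which library depth has been divided out but gene length has not. The libraries held between 56995121 and 82286366 reads in genes. Cd2bp2 stood at 884, 874 and 738 normalized counts in cKO libraries, against 2624, 2602 and 2612 in Control libraries. The log2 fold change was -1.65 (SE 0.11, adjusted p = 0.00137, limma with Benjamini-Hochberg adjustment), and the U5-52Kwt/f Control libraries were level with the U5-52Kf/f library without Cre. The T cell markers were present in every library, as the label of CD4+ T cells asks. The 12 T cell genes summed to 737351 to 799727 in cKO libraries and 747300 to 881974 in Control libraries, and limma called 0 of the 10 tested (2 at an unadjusted p under 0.05, 0 by edgeR, 1 by DESeq2). Cd3e was lower in every cKO library than in any Control library, at 0.797 times the Control mean (log2 fold change -0.32, adjusted p = 0.205, limma). Of the CD8 T cell genes, Cd8a lay between 17.7 and 32.0 in cKO libraries and between 9.7 and 107 in Control libraries, and Cd8b1 between 596 and 886 in cKO libraries and between 700.3 and 1464 in Control libraries. A pair of libraries stood apart in the lineage genes. KO_7.8 was the highest of 6 libraries in 18 of the 33 genes and CTRL_5.6 in 11. The members took 2.03%, 0.411% and 0.497% of the reads in genes in cKO libraries, against 0.363%, 0.323% and 0.518% in Control libraries. In bulk libraries, fewer cells of a type and less RNA per cell cannot be told apart.

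A mean of at least 100 normalized counts in either condition was needed for testing. It kept 31 members, with S100a8 and S100a9 below it, and Itgam passed only through its cKO mean. By limma at an adjusted p under 0.05, 1 of 31 members was called, Zbtb46, higher in cKO (3.23%), against a background of 0.973% of 11001 tested genes. An unadjusted p under 0.05 was reached by 10 members and by 1836 of all tested genes (16.7%). A further reading is whether the 3 cKO libraries all lay on one side of the 3 Control libraries. They lay above in 5 members (16.1%), against 12.6% of all tested genes, and below in 6 members (19.4%), against 11.5%, while 20 members overlapped. The members above were Ciita, Cst3, Itgax, Zbtb46 and Xcr1, and those below were 6 of the 9 B cell genes. The median log2 fold change was 0.87 over the tested members and 0.01 over all tested genes. All p-values rest on the spread among these 6 libraries, and the methods of the study name 3 cKO and 3 control mice.

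**Figure D1:**
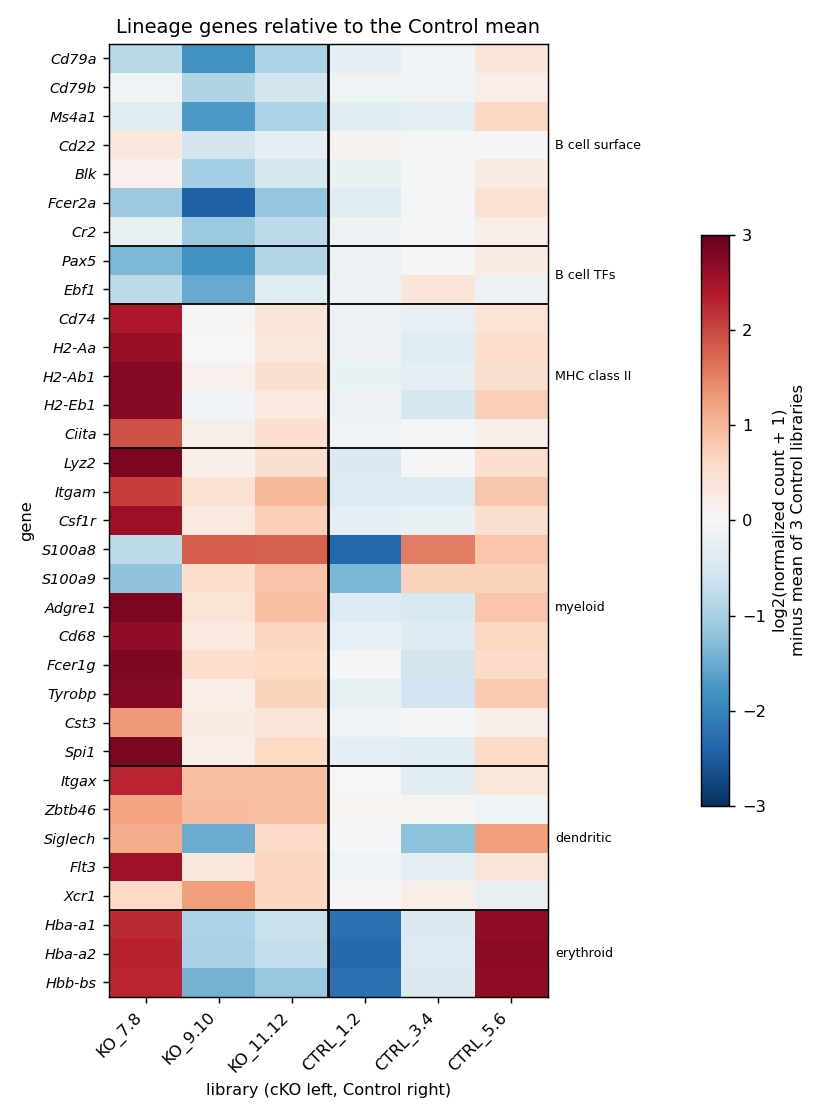
Heat map of the 33 genes (rows, by group) in the 6 libraries (columns, cKO left of Control). Color gives log2(normalized count + 1) minus the mean of the 3 Control libraries, clipped at -3 and 3. KO_7.8 is high in MHC class II, most myeloid genes and hemoglobin, CTRL_5.6 in hemoglobin, and the B cell rows are lowest in KO_9.10.

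The B cell genes stood lower in cKO libraries, without passing the limma threshold. All 9 had a negative log2 fold change, and all 9 were lowest in KO_9.10. Of the 12 T cell genes, 8 were also lowest in KO_9.10. Of the 10 T cell genes tested, 9 had negative log2 fold changes, with a median of -0.06 over the 10. The summed normalized count of the 9 B cell genes was 9021, 4765 and 7177 in cKO libraries, against 10226, 11130 and 13779 in Control libraries, and these ranges did not overlap. The median log2 fold change of the 7 surface or signaling genes was -0.71, and -0.96 without KO_7.8. An unadjusted limma p under 0.05 was reached by 5 of these 7 genes and by both transcription factors, against 16.7% of all tested genes. On whole reads recovered from the table, edgeR called 0 of the 9, against 1.02% of all tested genes. DESeq2, which called 8.42% of all tested genes, called Cd79a (adjusted p = 0.00167), Fcer2a (adjusted p = 0.00315) and Pax5 (adjusted p = 0.00159).

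Cd79a encodes a signaling chain of the B cell receptor. It stood at 1583, 807 and 1465 normalized counts in cKO libraries, against 2360, 2671 and 3621 in Control libraries. Every cKO library was below every Control library, and the log2 fold change was -1.20 (SE 0.28, adjusted p = 0.12, limma). Its partner chain Cd79b stood at 2639, 1518 and 1938 normalized counts in cKO libraries, against 2596, 2708 and 3283 in Control libraries. Here KO_7.8 lay within the Control range, and the log2 fold change was smaller, -0.52 (SE 0.21, adjusted p = 0.276, limma). Ms4a1, which encodes CD20, stood at 936, 366 and 627 normalized counts in cKO libraries, against 961, 991 and 1845 in Control libraries. The groups were separate by a narrow margin between KO_7.8 and CTRL_1.2. Cd22, an inhibitory receptor of B cells, stood at 1991, 1107 and 1339 normalized counts in cKO libraries, against 1738, 1555 and 1543 in Control libraries. It overlapped, and KO_7.8 was its highest library.

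Fcer2a and Cr2 encode CD23 and the complement receptor CD21, markers of mature B cells. Fcer2a stood at 494, 196 and 469 normalized counts in cKO libraries, against 815, 1009 and 1414 in Control libraries. Its log2 fold change of -1.56 (SE 0.39, adjusted p = 0.131, limma) was the lowest of the 31 tested members. Cr2 stood at 445, 239.9 and 301 normalized counts in cKO libraries, against 467, 513 and 594 in Control libraries. Both genes were lower in every cKO library than in any Control library. Blk, a Src family kinase, lay between 139 and 308 in cKO libraries and between 246 and 332 in Control libraries, which overlapped.

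Both transcription factors were separate between the groups. Pax5 stood at 132, 95.1 and 185 normalized counts in cKO libraries, against 297, 323 and 404 in Control libraries. Its log2 fold change was -1.35 (SE 0.29, adjusted p = 0.0983, limma). Ebf1 stood at 493, 297 and 659 normalized counts in cKO libraries, against 748, 1088 and 743 in Control libraries. Its log2 fold change was -0.88 (SE 0.31, adjusted p = 0.235, limma). Unlike the surface genes, Pax5 was not higher in KO_7.8 than the other cKO libraries on average, at 0.946 times their mean.

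**Figure D2:**
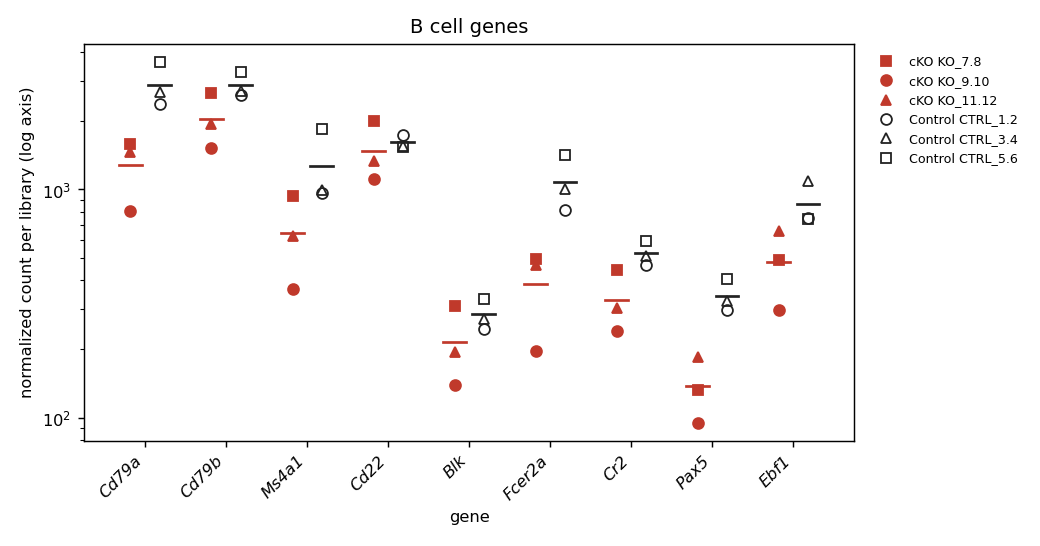
Normalized counts (log axis) of the 9 B cell genes in each cKO library (red, filled) and each Control library (black, open), with a bar at the mean of 3 libraries. The cKO points lie below all Control points for Cd79a, Ms4a1, Fcer2a, Cr2, Pax5 and Ebf1, and overlap them for Cd79b, Cd22 and Blk.

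Levels of different genes were compared per kilobase of exon, relative to Cd3e of the T cell receptor complex, itself lower in cKO libraries as given above, so the gap of genes lower in cKO is narrower on this scale. On that scale the mean of Cd79a was 8.59% of Cd3e in cKO libraries and 15.4% in Control libraries. That of Pax5 was 0.151% and 0.299%. Most MHC class II genes stood far higher on this scale. Cd74 was at 2372% of Cd3e in cKO libraries and 753% in Control libraries, and H2-Ab1 at 642% and 172%. H2-Eb1 was at 159% and 46.2%, and H2-Aa at 135% and 40.0%, whereas Ciita was far below Cd3e in both groups. These cKO means of class II genes were raised by KO_7.8. Among 20 further B cell genes 16 were tested and limma called 0 (7 at an unadjusted p under 0.05, 0 by edgeR, 3 by DESeq2), with 11 negative and 5 positive log2 fold changes and a median of -0.65. Of these, 2 reached the minimum through the Control mean only, and the median of the other 14 was -0.44. The nearest to the threshold was Pou2af1, a B cell coactivator, at -1.15 (adjusted p = 0.0544, limma). Jchain, which links secreted antibody in plasma cells, went the other way. It stood at 2383, 2803 and 2489 normalized counts in cKO libraries, against 1337, 1097 and 1346 in Control libraries (log2 fold change 1.02, adjusted p = 0.0218, limma). It was the only called gene of 5 tested plasma cell genes. Of the 20 further B cell genes, the immunoglobulin genes Ighm, Ighd, Igkc and Iglc2 carried no symbol and were not fitted. Their cKO means were 0.92, 0.40, 1.02 and 1.08 times the Control mean, and only Ighd did not overlap.

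The MHC class II genes were dominated by 1 library. All 5 had positive log2 fold changes and all 5 were highest in KO_7.8, at 3.77 to 6.53 times the Control mean. Limma, edgeR and DESeq2 each called 0 of them, and 0 reached an unadjusted limma p under 0.05. The median log2 fold change of the group was 0.98 with all libraries and 0.21 without KO_7.8. Cd74 encodes the invariant chain, which escorts class II molecules. It stood at 855773, 164347 and 207264 normalized counts in cKO libraries, against 142610, 135376 and 210870 in Control libraries. Only KO_7.8 left the Control range, and the log2 fold change of 0.95 had an SE of 0.59 (adjusted p = 0.483, limma). The β chain H2-Ab1 stood at 370783, 60174 and 77243 normalized counts in cKO libraries, against 48357, 45223 and 76858 in Control libraries. The α chain H2-Aa stood at 115195, 18954 and 24085 normalized counts in cKO libraries, against 16855, 14702 and 27211 in Control libraries. Again CTRL_5.6 was the highest Control library, near KO_11.12 in H2-Ab1 and above it in H2-Aa. H2-Eb1, a further β chain, stood at 71736, 10193 and 13209 normalized counts in cKO libraries, against 9559, 7509 and 17639.9 in Control libraries. Ciita, the coactivator of these genes, was the only one of the 5 that did not overlap. It stood at 5974, 1795 and 2229 normalized counts in cKO libraries, against 1459, 1536 and 1756 in Control libraries. Its log2 fold change was 0.87 (SE 0.42, adjusted p = 0.359, limma).

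Class II promoters share upstream boxes, among them the X box bound by RFX and the Y box bound by NF-Y. The RefSeq promoter windows of GRCm38.p6 held 2 of the 5 class II members, H2-Aa and H2-Eb1, and 23 of the 33 members in all. The 100 bases before each start site are shown for this pair because both carry GCAAC, a part of the X box, and CTGATTGG, the Y box, in the same order. Capitals mark these letters. H2-Aa lies on the minus strand, chr17:34287824-34287923, and H2-Eb1 on the plus strand, chr17:34305767-34305866.
H2-Aa: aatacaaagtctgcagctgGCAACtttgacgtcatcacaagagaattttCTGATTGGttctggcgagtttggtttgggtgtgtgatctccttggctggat
H2-Eb1: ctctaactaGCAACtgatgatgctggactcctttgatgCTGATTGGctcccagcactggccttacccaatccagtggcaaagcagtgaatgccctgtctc
The motifs lie 25 bases apart in H2-Aa and 24 bases apart in H2-Eb1. Searched on both strands of all 32851 windows of 300 bases, CTGATTGG was present in 4.1%, GCAAC in 35.2%, and the ordered pair with at most 37 bases between them in 0.155%. A match describes letters in the window and does not show binding.

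Ratios between genes within a library were read after their values were seen and are given as description. Cd74 to H2-Ab1 was 2.31, 2.73 and 2.68 in cKO libraries, against 2.95, 2.99 and 2.74 in Control libraries. All cKO ratios lay below all Control ratios, by a narrow margin, as they did for H2-Aa to H2-Ab1. Ciita to H2-Ab1 was 0.0161, 0.0298 and 0.0289 in cKO libraries, against 0.0302, 0.034 and 0.0228 in Control libraries, so Ciita did not keep its proportion in KO_7.8. Cd74 to Cd79a was 541, 204 and 141 in cKO libraries, against 60.4, 50.7 and 58.2 in Control libraries. The cKO ratios all lay above the Control ratios, and with 3 against 3 libraries an exact two-sided permutation test cannot go below p = 0.1. Among 7 further genes of antigen presentation limma called 0 (1 at an unadjusted p under 0.05, 0 by edgeR or DESeq2), and their median log2 fold change was 0.04.

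Most myeloid members followed the same library. All 11 had positive log2 fold changes when fitted with no minimum, with a median of 1.196. The 9 that reached the minimum, Itgam through its cKO mean only, were highest in KO_7.8, at 2.42 to 6.8 times the Control mean. As for class II, 0 of the 9 were called by any of the 3 tools, and 0 reached an unadjusted limma p under 0.05. The median log2 fold change of the other 8 was 1.201 with all libraries and 0.45 without KO_7.8. Cst3, which encodes the protease inhibitor cystatin C, stood at 16076, 7747 and 8527 normalized counts in cKO libraries, against 6070.2, 6494 and 7389 in Control libraries. It was the only one of the 11 myeloid members without overlap (log2 fold change 0.62, SE 0.27, adjusted p = 0.31, limma). Spi1 encodes PU.1, a transcription factor of myeloid cells and B cells. It stood at 7394, 1197 and 1584 normalized counts in cKO libraries, against 868, 819.6 and 1589 in Control libraries. Lyz2, lysozyme of macrophages and neutrophils, stood at 6603, 1032 and 1302 normalized counts in cKO libraries, against 687, 892 and 1336 in Control libraries. Fcer1g, a signaling chain of Fc receptors, stood at 5942, 1234 and 1289 normalized counts in cKO libraries, against 826, 587 and 1281 in Control libraries. In Spi1, Lyz2 and Fcer1g, KO_7.8 was far above the rest, and CTRL_5.6 lay above KO_9.10 and close to or above KO_11.12.

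Tyrobp (the adaptor DAP12), Cd68 (a lysosomal protein of macrophages), Csf1r (the M-CSF receptor), Adgre1 (F4/80) and Itgam (CD11b) had log2 fold changes between 1.17 and 1.38, with adjusted p between 0.348 and 0.426 by limma. In these genes KO_7.8 was 3.94 to 6.52 times the Control mean. The neutrophil alarmin genes S100a8 and S100a9, singled out after their values were seen, departed from this order. S100a8 stood at 11.6, 75.8 and 73.5 normalized counts in cKO libraries, against 3.2, 62.0 and 37.8 in Control libraries. S100a9 stood at 7.4, 26.9 and 33.7 normalized counts in cKO libraries, against 6.5, 30.0 and 30.2 in Control libraries. Both were low in KO_7.8, in contrast to the other myeloid members. Both were lowest in CTRL_1.2, as were Lyz2, Itgam, Csf1r and Cst3. Further neutrophil genes were present at low levels and did not share 1 order. Ly6g did not exceed 0.842 in any library, whereas Ngp, a granule protein, stood at 38.9, 74.9 and 87.3 normalized counts in cKO libraries, against 0, 198 and 88.1 in Control libraries. Mpo, a granule enzyme, stood at 38.9, 76.6 and 36.3 normalized counts in cKO libraries, against 0, 5.63 and 21.4 in Control libraries. Elane, a further granule enzyme, stood at 28.4, 46.3 and 39.8 normalized counts in cKO libraries, against 0, 5.63 and 7.55 in Control libraries. Mpo and Elane were higher in every cKO library than in any Control library, and both were under the minimum for testing. Of 30 further myeloid genes 13 were highest in KO_7.8 and 4 in CTRL_5.6, C1qa, C1qb and C1qc among the latter. The minimum was reached by 15. Every cKO library was above every Control library in 4 (Csf3r, Fcgr3, Ccr2 and Lgals3) and below in 1 (Ly6c2). The shares over all tested genes were 12.6% and 11.5%. Limma called 0 of the 15 (4 at an unadjusted p under 0.05, 0 by edgeR, 3 by DESeq2). Of the 15, 6 reached the minimum through the cKO mean only, Csf3r among them. Of the other 9, 8 had positive log2 fold changes, with a median of 0.71, and with no minimum 26 of all 30 were positive, with a median of 0.86. Csf3r, the G-CSF receptor, stood at 369, 176 and 223 normalized counts in cKO libraries, against 67.9, 90.1 and 69.2 in Control libraries.

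The dendritic cell genes split into those that followed KO_7.8 and those that did not. Zbtb46, a zinc finger factor of conventional dendritic cells, was the called member. It stood at 1585, 1333 and 1316 normalized counts in cKO libraries, against 725, 744 and 639 in Control libraries. It rose by a log2 fold change of 1.003 (SE 0.13, adjusted p = 0.023, limma), and KO_7.8 was near the other cKO libraries, at 1.196 times their mean. The call was kept without KO_7.8 (adjusted p = 0.032, limma) and lost without any other single library, at adjusted p of 0.146 without CTRL_1.2, 0.11 without CTRL_3.4, 0.0735 without CTRL_5.6, 0.106 without KO_9.10 and 0.116 without KO_11.12. The log2 fold change lay between 0.92 and 1.05 over those fits. Itgax, which encodes CD11c, stood at 3518, 1337 and 1337 normalized counts in cKO libraries, against 724, 567 and 906 in Control libraries. The groups were separate (log2 fold change 1.36, SE 0.39, adjusted p = 0.17 by limma and 0.00714 by DESeq2). Flt3, the receptor that drives dendritic cell development, stood at 4883, 1056 and 1308 normalized counts in cKO libraries, against 769, 700.4 and 1104 in Control libraries. It overlapped through CTRL_5.6 and KO_9.10.

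Xcr1 and Siglech mark other dendritic cell types, the cross-presenting conventional cells and the plasmacytoid cells. Xcr1 stood at 225, 355 and 233 normalized counts in cKO libraries, against 152, 171 and 127 in Control libraries. It was separate between the groups and highest in KO_9.10 (log2 fold change 0.83, SE 0.25, adjusted p = 0.187, limma). The further dendritic cell genes Clec9a and Batf3 did not share this order. Clec9a overlapped and was lowest in KO_9.10, at 82.0, 4.2 and 19.0 in cKO libraries, against 10.8, 4.7 and 34.0 in Control libraries. Batf3 was separate but highest in KO_7.8, at 1081, 211 and 235 in cKO libraries, against 137, 130 and 199 in Control libraries. Siglech stood at 522, 85.0 and 358 normalized counts in cKO libraries, against 236, 101 and 579 in Control libraries. Each group held high and low libraries, and the log2 fold change was 0.07 (SE 0.83). Over the 6 libraries Cd74 to Flt3 lay between 156 and 193, whereas Zbtb46 to Flt3 lay between 0.325 and 1.26 and Xcr1 to Flt3 between 0.0461 and 0.337, both lowest in KO_7.8.

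Of 16 further dendritic cell genes 14 were highest in KO_7.8. The minimum was reached by 11, of which limma called 0 (2 at an unadjusted p under 0.05, 0 by edgeR, 1 by DESeq2). Of these, 1 reached it through the cKO mean only. The other 10 had 7 positive and 3 negative log2 fold changes, with a median of 0.15. Cd209a, a lectin of conventional dendritic cells, stood at 8351, 1346 and 1730 normalized counts in cKO libraries, against 1025, 1024 and 1425 in Control libraries. Clec4a4, a lectin of the CD4-bearing splenic dendritic cells, stood at 1680, 294 and 334 normalized counts in cKO libraries, against 166, 130 and 334 in Control libraries. Cd209a and Clec4a4 moved with the class II and myeloid genes of KO_7.8, and their part in those values was not tested.

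**Figure D3:**
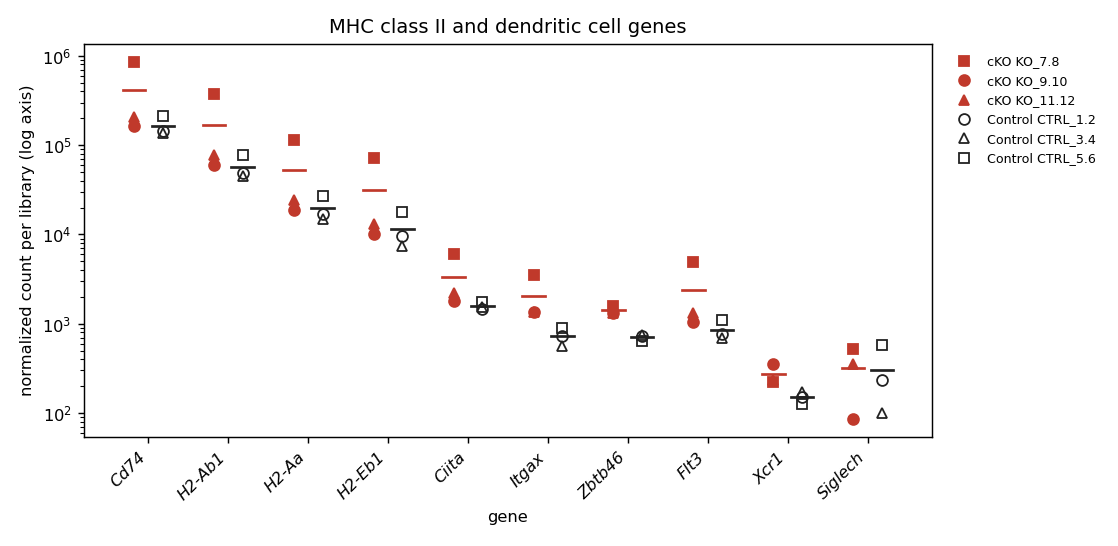
Normalized counts (log axis) of the 5 MHC class II and 5 dendritic cell genes in each cKO library (red, filled) and each Control library (black, open), with a bar at the mean of 3 libraries. KO_7.8 (red square) sits above the rest in Cd74, H2-Ab1, H2-Aa, H2-Eb1, Ciita, Itgax and Flt3, whereas the Zbtb46 points form a separate cluster for each group.

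The hemoglobin genes varied between libraries within each group and were not separated between cKO and Control. Hba-a1 stood at 1327, 145 and 175 normalized counts in cKO libraries, against 59.3, 207 and 1791 in Control libraries. Hba-a2 stood at 1266, 128 and 155 normalized counts in cKO libraries, against 49.6, 193 and 1672 in Control libraries. Hbb-bs, listed under the symbol Hbb-b1, stood at 720.1, 53.9 and 66.6 normalized counts in cKO libraries, against 30.2, 109 and 934 in Control libraries. CTRL_5.6, the only U5-52Kf/f CD4-Cre- library, was 13.4 to 13.8 times the mean of the U5-52Kwt/f Control libraries, so within Control its genotype and the single library cannot be told apart. KO_7.8 was 8.28 to 11.96 times the mean of the other cKO libraries. The log2 fold changes were 0.20 (SE 1.34), 0.21 (SE 1.38) and -0.09 (SE 1.43), with the sign of the α-globin genes negative by edgeR and DESeq2. None of the 3 tools called any of these 3 genes, and 0 reached an unadjusted limma p under 0.05. Hba-a1 and Hba-a2 differ at 1 of 429 coding bases, and Hbb-bs and its neighbor Hbb-bt at 1 of 444, so how reads were shared between the copies is uncertain. Hba-a2 to Hba-a1 lay between 0.836 and 0.954. Slc4a1, the band 3 anion exchanger and a defining erythroid marker, was near 0, at no more than 3.76 normalized counts in any library. Of 14 further erythroid genes 13 could be read, all but Ahsp. Of those, 7 were tested and limma called 0 (1 at an unadjusted p under 0.05, 0 by edgeR, 1 by DESeq2).

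**Figure D4:**
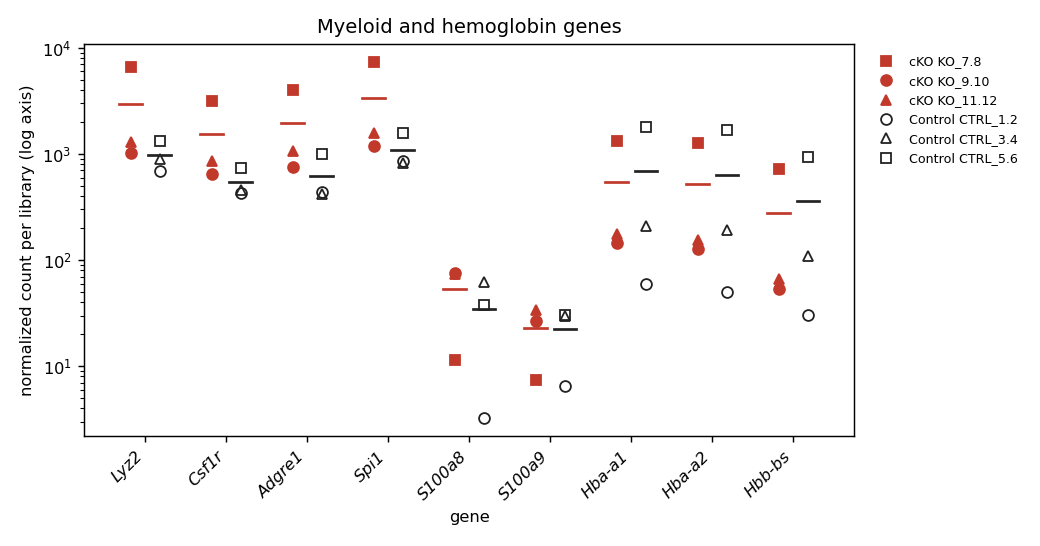
Normalized counts (log axis) of 4 macrophage or general myeloid genes, S100a8, S100a9 and the 3 hemoglobin genes in each cKO library (red, filled) and each Control library (black, open), with a bar at the mean of 3 libraries. KO_7.8 (red square) is highest in Lyz2, Csf1r, Adgre1 and Spi1 and low in S100a8 and S100a9, and hemoglobin is highest in CTRL_5.6 (open square).

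Leaving out KO_7.8 lowered the median log2 fold change of every group of members. The log2 fold changes of the 7 B cell surface genes had a median of -0.96, against -0.71 with all libraries, and those of class II and myeloid genes shrank to medians of 0.21 and 0.45. The dendritic median was 0.89 without KO_7.8 and 1.003 with it. Zbtb46 stayed the only called member of 30 tested. Without KO_7.8 the B cell members nearest the threshold by limma were Cr2 (adjusted p = 0.0795) and Cd79a (adjusted p = 0.0899). Of the further B cell genes, 16 were tested in that fit and limma called 1. Of other cells the sort could hold, 8 NK cell genes were tested and limma called 0 with all libraries (4 at an unadjusted p under 0.05, 0 by edgeR, 2 by DESeq2). Of these, 2 (Ncr1 and Klre1) reached the minimum through the cKO mean only, and the other 6 had a median log2 fold change of 0.19 with 2 at an unadjusted p under 0.05. Every cKO library was above every Control library in 3 of the 8, against 12.6% of all tested genes. They were Nkg7 and those that passed through the cKO mean only. No platelet or mast cell gene reached the minimum.

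**Figure D5:**
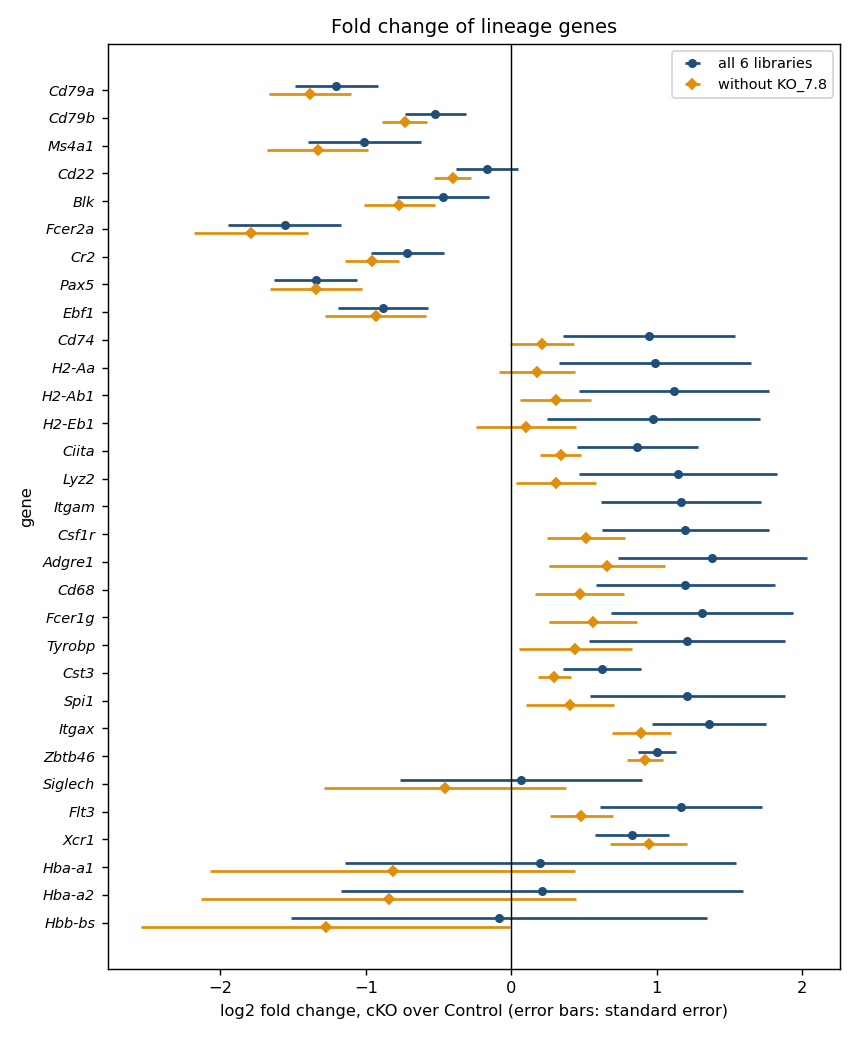
Log2 fold change (cKO over Control) with standard error for the 31 tested members, from all 6 libraries (blue circles) and without KO_7.8 (orange diamonds, absent for Itgam). B cell genes lie left of 0 in both fits, class II and myeloid genes move toward 0 without KO_7.8, Zbtb46 stays near 1 with the narrowest error bar of all 6 libraries, and hemoglobin spans 0.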

How the data were processed

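RNA-seq of sorted CD4+ CD8- cells gave 1 library from each of 3 cKO and 3 Control samples. Reads were trimmed (cutadapt) and aligned (STAR) by the authors, who used GRCm38 (mm10), and they deposited DESeq2-normalized counts per gene, a depth-scaled signal, per the submitters' notes. Whether counting used strand, the sources used here do not say. Each value was a whole number of reads times 1 factor per library (100% of values within 0.01 reads). The log2(normalized count + 1) values of named genes whose mean reached 100 in at least 1 condition were fitted with limma 3.58.1 (variance trend, R 4.3.3), with Benjamini-Hochberg adjustment over 11001 genes and calls at adjusted p under 0.05. On the recovered whole reads edgeR 4.0.16 called 112 genes and DESeq2 1.42.0 called 926, of which 1 and 5 were members. The fit was tested on simulated data. Fold changes on this scale understate those of low genes.

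All 33 members were reported. Values in every library were given for groups of 5 or fewer, and in larger groups for the 4 of highest mean, for members called in the fit or with 1 library left out, and for members whose groups did not overlap. Members and lists were chosen with earlier results of these data known. Ratios and summaries used Python 3.11.15, numpy 2.4.6 and pandas 2.3.3. The deposited comparison columns (means, fold changes, p-values) and the rMATS splicing tables were not used. Promoters came from RefSeq. Alternatives were another pseudocount (10), other minimums, TMM rescaling, edgeR, DESeq2, and each library left out.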

Additional observations from a re-analysis of the deposited data

How the results depend on the processing

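The count of called members (1) and of all called genes (107) depended on the tool and on single libraries. DESeq2 on whole reads called 5 members (2 higher and 3 lower in cKO, adding Itgax, Cd79a, Fcer2a and Pax5 to Zbtb46) and 926 genes, and the cause was not tested. With 1 library left out, members called ranged from 0 to 1 and all genes called from 26 to 128. After the data were seen, a fit without KO_7.8 and CTRL_5.6 was added. It called 24 of 29 tested members (16 higher, 8 lower) and 1485 of 10961 genes (13.5%). Those libraries were picked for their high hemoglobin, itself among the members, which narrows the spread within groups, so its p-values are too small to be read as tests. Both groups then hold 2 libraries. The pseudocount, the minimums, TMM rescaling and edgeR kept both counts within 1.5 times. TMM rescaling moved library medians by at most 0.039 on the log2 scale.

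Directions reversed for Hba-a1 (-0.33 by edgeR, -0.34 by DESeq2) and Hba-a2 (-0.32 by edgeR, -0.32 by DESeq2). With 1 library left out, log2 fold changes ranged from -0.91 to 1.53 for Hba-a1, -0.96 to 1.57 for Hba-a2, -1.28 to 1.25 for Hbb-bs, -0.55 to 0.84 for Siglech and -0.40 to 0.021 for Cd22. No other member reversed. No paired analysis was possible because the labels give the groups no shared replicate numbers. KO_7.8 widened the errors of class II genes: the standard error of Cd74 was 0.59 with all libraries and 0.22 without KO_7.8.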
